A study of Mus musculus with 38 samples.

Results

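Collagens are the triple-helical proteins that build most of the extracellular matrix, and their genes were followed here across cultured kidney tumour cells, kidney tumours and normal kidney of the mouse. The genes were taken by name alone, as every gene of the expression table whose symbol reads Col, a number, the letter a and a number, which gave 42 of 21705 genes. Of the 42, 11 encode chains of the fibrillar collagens, 6 encode the type IV chains and 25 encode other collagens. The 25 are 5 type VI genes, 9 genes of fibril-associated collagens (FACIT), 2 multiplexins, 4 transmembrane collagens, 3 short-chain network collagens, the anchoring-fibril gene Col7a1 and Col28a1. Col6a3, Col21a1 and Col26a1 were not analysed here.

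Bulk RNA-seq of 38 libraries in 10 groups was used. Every tumour and cell line came from mice in which doxycycline (Dox) turns on a MYC transgene in renal tubule cells, since the Ksp promoter drives the rtTA activator (Ksp-rtTA; Tet-O-MYC). The MYC-2983 line and the MYC tumours carry that transgene alone (MYC+). The VM line and VM tumours also lost Vhl, through a tamoxifen-activated Cre driven by the same Ksp promoter (Vhl-/-; MYC +). The VIM line and VIM tumours lack Ink4a/Arf (Cdkn2a) throughout the animal as well (Vhl-/-; MYC +; Ink-/-/Arf-/-). Each line is a culture from a single tumour, with 4 libraries labelled as maintained on Dox and 4 labelled as withdrawn from it a day earlier, so their p-values measure the spread among libraries of 1 line. There were 3 libraries for each tumour genotype, and MYC tumour libraries 2 and 3 came from 1 mouse and were averaged in the tests. The 5 normal kidney libraries came from wild-type mice given vehicle. Some of these libraries are titled B6 and the others KT, and what KT stands for was not in the labels. The ages of these mice were not given in the sources used here.

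The fibrillar collagens, led by types I, III, V and XI, form the banded fibres of interstitial matrix and are made mainly by mesenchymal cells. Type IV collagen forms the sheet of basement membranes. Col4a1 and Col4a2 chains occur in almost every basement membrane, whereas the Col4a3, Col4a4 and Col4a5 chains form the network of the mature glomerular filter, where podocytes make it, and of parts of the tubule. Col4a6 pairs with Col4a5 in Bowman's capsule and in some epithelial basement membranes. New chains are hydroxylated and folded in the endoplasmic reticulum with the collagen chaperone HSP47 (Serpinh1), and laid-down collagen is crosslinked by the lysyl oxidases.

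Values are given in units: estimated read counts per gene, scaled in each library so that the upper quartile of genes above 0 is 1000. The value of 1 read was worked out from the smallest values of each library. Estimated totals were 12.4 to 36.6 M reads (M, mega) in the cell libraries, 8.22 to 15.4 M in the tumours and 11.8 to 15.5 M in the kidneys. A level of 3 reads, 1.16 to 5.65 units depending on the library, was used as the floor of detection, and it covers counting error only. Tests used limma on log2(units + 1), which understates changes at low levels, with Benjamini-Hochberg adjustment over all genes tested. A gene was said to rise, fall or differ where the adjusted p was below 0.05 and the log2 change beyond 1 in size.

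The engineered genes were looked at before the collagens. Mean Vhl was 451 units in MYC-2983 cells labelled with Dox against 13.1 in VM and 12.7 in VIM cells, and 499, 53.6 and 252 in MYC, VM and VIM tumours. Cdkn2a was at 29.98 units in VIM cells with Dox against 3804 in VM cells. The Myc row went against the Dox labels, with 676 units with Dox and 1831 without in MYC-2983 cells, 384 and 1364 in VM cells, and 381 and 1479 in VIM cells. Whether that row counts reads of the transgene is not stated, so "with Dox" and "without Dox" follow the labels of the libraries throughout, and every direction given for Dox rests on them.

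Some libraries stood apart in the genes of other cell types. The summed level of 10 fibroblast markers was 4951 units in MYC tumour library 2 against 1404 and 1439 in the other two, and 6742 in VM tumour library 1, the highest of its group, whose lowest was 794. Among the kidneys it reached 2940 in library 5, and the lowest was 975. In the cell lines the sum was 9873 to 10656 units in MYC-2983 cells with Dox and 27398 to 28592 without, but only 345 to 412 and 242 to 255 in VM cells and 102 to 136 and 237 to 261 in VIM cells. Thy1, Lum and Dpt were at 0 in every VM library, and 6 of the 10 markers were above the floor in every MYC-2983 library. In bulk samples, fewer cells of a type and less RNA per cell cannot be told apart.

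Collagen genes were detected in every group, but different classes led. Of the 42 genes, 27 were above the floor in every MYC-2983 library with Dox, 16 in every VM library with Dox and 21 in every VIM library with Dox, against 28, 21 and 24 without Dox. These counts were not taken at equal depth. With Dox, estimated totals were 24.8 to 26.9 M reads in MYC-2983, 14.4 to 17.3 M in VM and 15.9 to 19.9 M in VIM cells. The floor was thus lower in MYC-2983 cells (1.57 to 1.68 units) than in VM (2.22 to 2.63) and VIM cells (1.97 to 2.42). In the tumours the number was 24, 23 and 24 for MYC, VM and VIM, and in kidney it was 24. Col22a1, Col6a5, Col9a1 and Col9a2 were above the floor in no library, and 13 genes were above it in all 38.

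Levels divided by transcript length, in units per kb, allow the genes to be set beside each other. Type IV genes held 39.5% of the summed collagen level per kb in MYC-2983 cells with Dox, 10.3% in VM cells and 24.6% in VIM cells, whereas they held 54.8%, 68.8% and 53.9% in MYC, VM and VIM tumours and 64.7% in kidney. The fibrillar share was largest in VIM cells with Dox, at 49.6%, and there a single gene, Col5a2, stood at 1243 units per kb. Per kb the leading gene was Col6a1 in MYC-2983 cells with Dox (458), Col18a1 in VM cells (326), Col4a1 in each tumour group (1672, 1637 and 616) and Col4a3 in kidney (783).

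**Figure D1:**
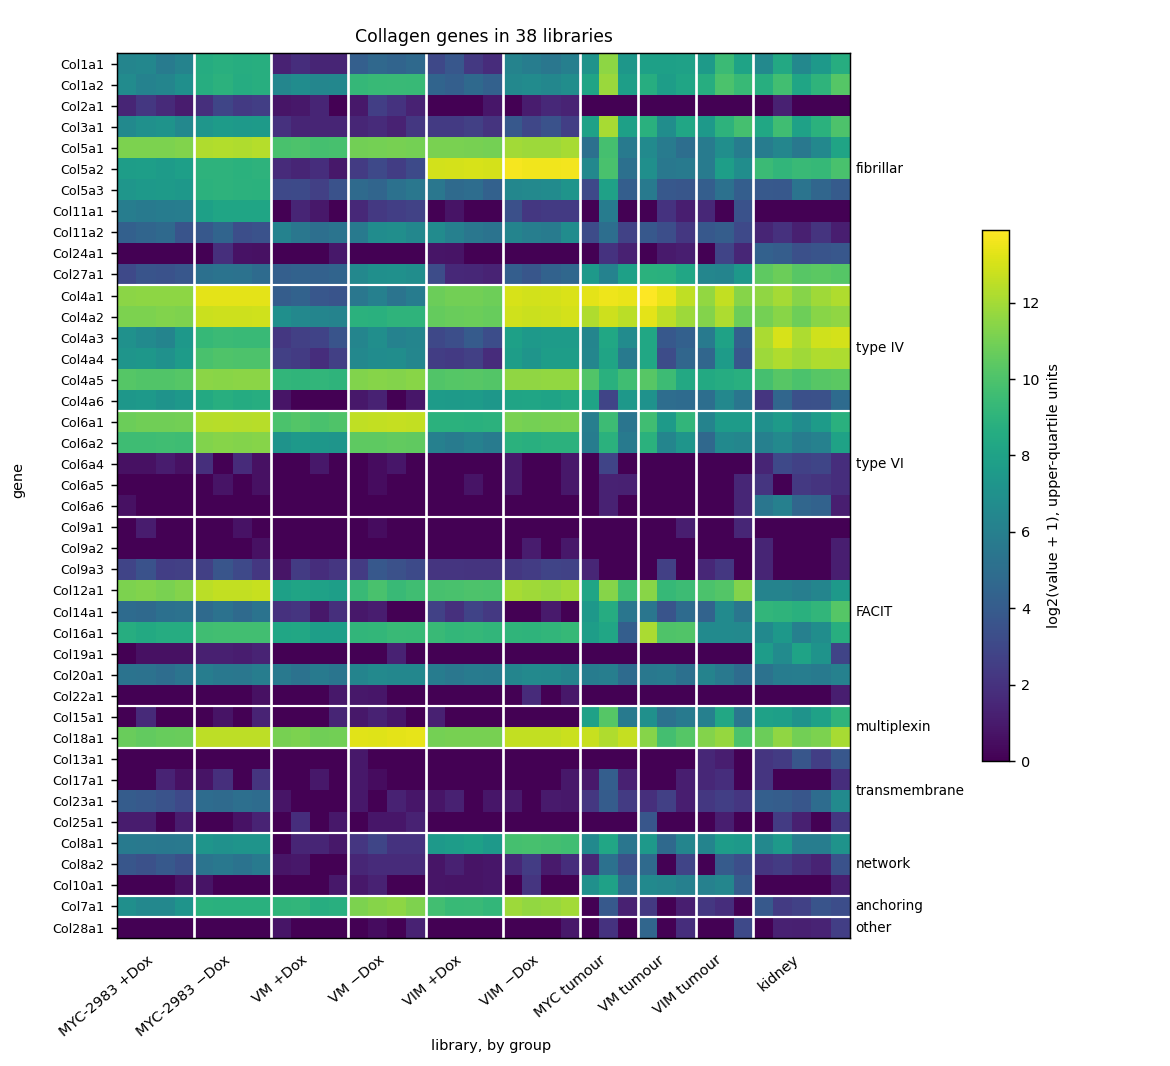
Level of each collagen gene in each of the 38 libraries, as log2(units + 1), with genes as rows ordered by class and libraries as columns, set out by group. Type IV genes are bright in the tumours and kidney, Col4a1 and Col5a2 are dark in VM cells and bright in VIM cells, and Col10a1 is seen in the tumours but not in kidney or cells.

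Libraries with and without Dox were compared within each line to ask which genes follow MYC activation. Collagen genes were mostly lower with Dox. In MYC-2983 cells 22 of the 32 tested were lower and 0 higher, where 15% of all genes tested were lower and 4.49% higher. In VM cells 21 of 30 were lower and 1 higher, against 18.9% and 5.92% of all genes. In VIM cells 16 of 29 were lower and 1 higher, against 16.6% and 7.67%. The median log2 change over the collagen genes tested was −1.35, −1.53 and −1.64 in the 3 lines, beside −0.13, −0.26 and −0.15 over all genes tested.

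Each class took part. All 6 type IV genes fell in MYC-2983 cells and 5 of 6 in VM and in VIM cells, with class medians of −1.72, −2.35 and −2.16. Of the 10 fibrillar genes tested in each line, 7, 7 and 5 fell, with medians of −1.35, −1.52 and −1.35. Among the other collagens, 9 of 16, 9 of 14 and 6 of 13 fell. Of 28 genes tested in all 3 lines, 16 fell in all of them: Col1a1, Col1a2, Col5a3, Col11a1 and Col27a1 of the fibrillar class, Col4a1 to Col4a5 of type IV, and Col6a1, Col6a2, Col7a1, Col8a1, Col12a1 and Col18a1. The share of all genes that fell in all 3 lines was not worked out. Taken line by line, it was 15% in MYC-2983, 18.9% in VM and 16.6% in VIM cells. The single gene that rose was Col14a1, a FACIT gene, in VM and VIM cells. It lay near the floor in both lines. In VM cells the libraries with and without Dox overlapped. In VIM cells they did not, with 5.55, 2.77, 5.91 and 4.04 units with Dox against 0, 0, 1.02 and 0 without. In MYC-2983 and VIM cells the fibroblast marker sum was likewise lower with Dox, while in VM cells it was higher. The sum of 6 markers of mural cells was lower with Dox in all 3 lines, at 17715 to 20630 units against 71552 to 76324 without in MYC-2983, 975 to 1190 against 1778 to 2034 in VM and 1129 to 1333 against 6313 to 7003 in VIM cells, although Rgs5, one of the 6, was at 0 in every MYC-2983 and VM library. The part of either set in the collagen changes was not tested.

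Other scalings kept the direction and changed its size. Rescaling by trimmed means (TMM) raised the median change of all genes by 0.12 in MYC-2983, 0.21 in VM and 0.14 in VIM cells, and quantile normalization raised it by 0.15, 0.25 and 0.16. Among all genes called, the share lower with Dox was 77.0%, 76.2% and 68.4% in the 3 lines as scaled by the authors, 67.5%, 59.5% and 56.5% after TMM, and 58%, 51.5% and 50.7% after quantile normalization. The collagen medians stayed at −1.22, −1.32 and −1.48 after TMM and at −1.17, −1.06 and −1.40 after quantile normalization.

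**Figure D2:**
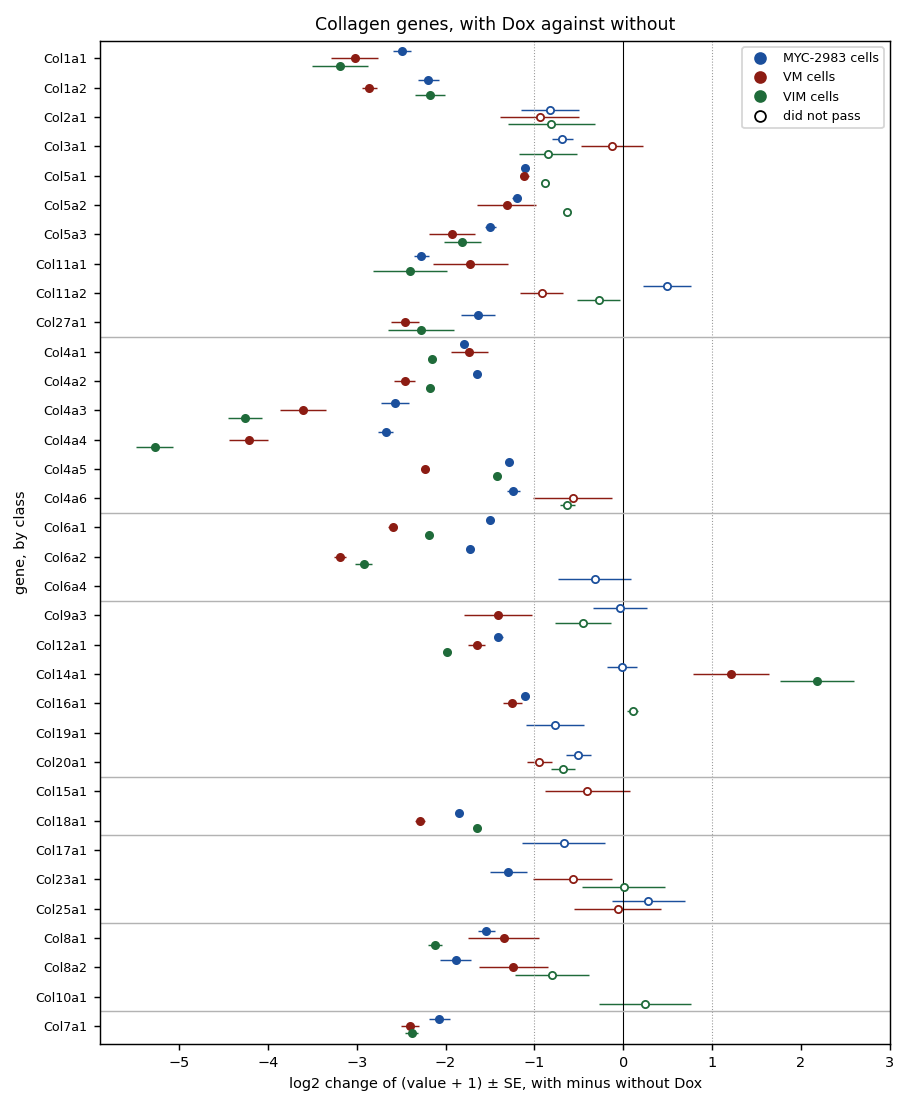
Change with Dox (log2 of units + 1, with Dox minus without) of every collagen gene tested in the MYC-2983, VM and VIM lines, with bars of 1 standard error from limma and filled points for genes past the threshold. Nearly all points lie below 0, the lowest being Col4a4 in VIM cells at −5.27.

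Type IV genes lie head to head in pairs. In the mm9 assembly Col4a1 (chr8:11198423-11312826, minus strand) and Col4a2 (chr8:11312805-11449287, plus strand) start 21 bases apart on opposite strands, Col4a3 (chr1:82583496-82718634, plus strand) and Col4a4 (chr1:82447298-82583424, minus strand) start 72 bases apart, and Col4a5 (chrX:137909928-138123778, plus strand) and Col4a6 (chrX:137599946-137908619, minus strand) start 1309 bases apart. The bases between the first exons of Col4a3 and Col4a4, and the 250 bases before Col4a5 and before Col4a6, are shown because these pairs are the ones whose members moved most with Dox or were lost from 1 line. They were read from the NCBIM 37 (mm9) genome, each 5′ to 3′ on the strand named, and capitals mark the searched motifs that were found, CCAAT before Col4a5 and GGGCGG (on the other strand) before Col4a6.
Col4a3 and Col4a4, chr1:82583425-82583495, plus strand: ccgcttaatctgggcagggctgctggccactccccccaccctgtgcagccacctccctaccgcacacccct
Col4a5, chrX:137909678-137909927, plus strand: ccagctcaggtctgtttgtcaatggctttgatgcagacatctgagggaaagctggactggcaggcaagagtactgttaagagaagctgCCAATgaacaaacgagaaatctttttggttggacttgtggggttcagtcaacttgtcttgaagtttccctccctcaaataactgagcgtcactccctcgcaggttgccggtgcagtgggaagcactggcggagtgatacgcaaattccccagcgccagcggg
Col4a6, chrX:137908620-137908869, minus strand: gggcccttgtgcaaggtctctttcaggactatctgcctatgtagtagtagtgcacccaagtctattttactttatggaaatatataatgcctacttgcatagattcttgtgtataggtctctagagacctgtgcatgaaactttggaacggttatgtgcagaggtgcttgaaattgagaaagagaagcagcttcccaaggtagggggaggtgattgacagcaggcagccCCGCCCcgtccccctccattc
The 71 bases between Col4a3 and Col4a4 have 69.0% G and C and hold 0 matches to the motifs searched, whereas the windows of Col4a5 and Col4a6 have 52% and 47.6%.

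The motifs were searched for on both strands in the 250 bases before each of the 42 genes and of 22380 annotated protein-coding genes. The latter are meant by "all genes" in this paragraph, and no motif contains another. CACGTG, an E-box that MYC can bind, was in the window of 1 collagen gene (2.38%), Col17a1, and in 6.51% of all genes. GGGCGG was found before 22 collagen genes (52.4%, against 39.6% of all), CCAAT before 17 (40.5% against 35%) and TATAAA before 5 (11.9% against 12.3%). The median G and C content of the windows was 59.6% for the collagen genes and 54% for all genes. A match describes the letters in these windows and shows neither a site nor its absence elsewhere.

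Col4a1, the commonest basement membrane chain, had 2881, 2926, 3007 and 2958 units in the MYC-2983 libraries with Dox and 10079, 10189, 10275 and 10243 without. VIM cells had 1728, 1974, 1980.3 and 1809.6 with Dox and 8404, 7846, 8228 and 8883 without, whereas VM cells had 16.3, 19.6, 12.7 and 11.4 with Dox and 44.97, 65.9, 40.3 and 56.97 without. In each line the groups did not overlap, and VM cells stood far below both other lines in either state. The log2 changes with Dox were −1.79 ± 0.02, −1.73 ± 0.21 and −2.16 ± 0.04 (± SE) in MYC-2983, VM and VIM cells, with adjusted p of 2.86e-19, 7.43e-07 and 1.89e-20. In VM cells the change was −0.96 after quantile normalization and missed the threshold there.

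Its partner Col4a2 had 2254, 2319, 2448 and 2366 units in MYC-2983 cells with Dox and 7154, 7345, 7369 and 7577 without, and 1567, 1696, 1773 and 1634 and 7641, 6945, 7297 and 8193 in VIM cells. In VM cells it had 119.7, 89.4, 78.1 and 72.8 with Dox and 466, 454, 526 and 521 without, so it was low there but kept more than its partner did. The log2 changes were −1.65 ± 0.03, −2.46 ± 0.12 and −2.17 ± 0.04, with adjusted p of 2.43e-18, 3.64e-12 and 2.41e-20. The chains join as a pair of Col4a1 with 1 Col4a2, and per kb the ratio of Col4a1 to Col4a2 was 1.198 to 1.25 in MYC-2983 cells with Dox and 1.07 to 1.13 in VIM cells with Dox. In VM cells the ratio was 0.132 to 0.214 with Dox and 0.0747 to 0.141 without. Tumours had ratios of 1.55 to 2.06 (MYC), 1.44 to 1.86 (VM) and 1.23 to 1.45 (VIM), and kidney 1.38 to 1.54, so VM cells alone lay outside the range of the other groups on this measure. The genes overlap at their first exons on opposite strands, which the stranded kit separates only if the counting used strand.

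**Figure D3:**
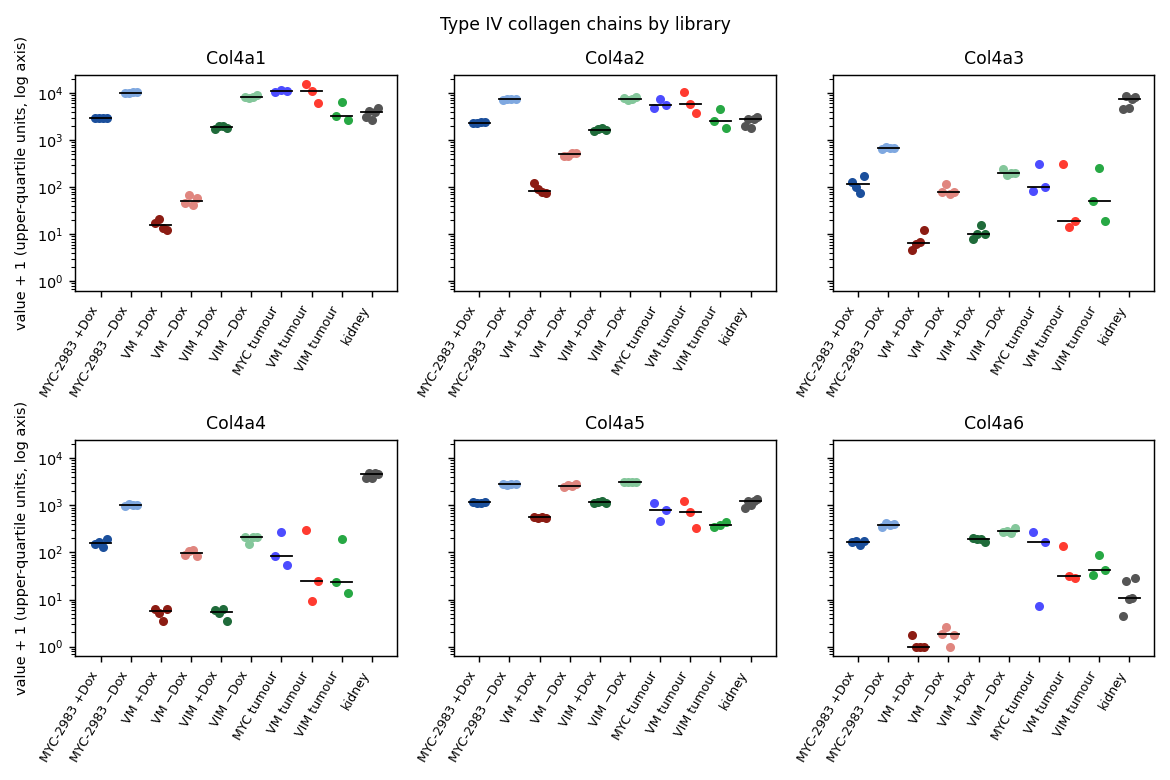
Level of each of the 6 type IV genes in every library (units, on a log axis of units + 1), by group, with a bar at each group median. Col4a1, Col4a2 and Col4a6 drop in VM cells, and Col4a3 and Col4a4 are highest in the 5 kidneys.

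Col4a3 and Col4a4, the chains of the glomerular filter, fell furthest with Dox. Col4a4 had 153, 165, 128 and 197 units with Dox and 946, 1086, 1027 and 1027 without in MYC-2983 cells, 5.17, 4.26, 2.55 and 5.26 and 88.2, 106, 109 and 81.3 in VM cells, and 4.86, 4.16, 5.25 and 2.42 and 211, 149, 214 and 211 in VIM cells. With Dox, VM and VIM libraries were within a few units of the floor, and no library overlapped those without Dox. The log2 changes were −2.68 ± 0.09 (adjusted p = 4.53e-15) in MYC-2983, −4.22 ± 0.22 (adjusted p = 6.48e-12) in VM and −5.27 ± 0.21 (adjusted p = 1.19e-15) in VIM cells. Col4a3 had 131, 101, 74.8 and 169.8 units with Dox and 640.4, 718, 686 and 689 without in MYC-2983 cells, 3.69, 5.11, 5.94 and 11.4 with Dox and 79.4, 117, 69.8 and 79.8 without in VM cells, and 6.94, 9.01, 15.1 and 8.89 with Dox and 236, 176, 199 and 199.9 without in VIM cells. It too showed no overlap, with log2 changes of −2.57 ± 0.16, −3.61 ± 0.26 and −4.26 ± 0.19.

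Col4a5 was the steadiest of the class between lines, whereas Col4a6 was lost from VM cells. Col4a5 had 1206, 1099, 1104 and 1207 units with Dox and 2864, 2766, 2819 and 2815 without in MYC-2983 cells. VM cells had 575, 549.8, 567 and 534 with Dox and 2445, 2650.2, 2586 and 2797 without, and VIM cells had 1101, 1192, 1247 and 1148 with Dox and 3118, 3062, 3159 and 3170.5 without. The groups did not overlap in any line, and the log2 changes were −1.29 ± 0.03, −2.23 ± 0.05 and −1.42 ± 0.04. Col4a6 had 163, 177, 142 and 170.3 units with Dox in MYC-2983 cells, 197, 189, 194 and 166 in VIM cells and 0.739, 0, 0 and 0 in VM cells, where every library was at or under the floor. Its level was at least 61.96-fold higher in MYC-2983 and at least 70.8-fold higher in VIM than in VM cells, taking the floor of 3 reads per library. Without Dox it had 346, 420.5, 373 and 403 units in MYC-2983 and 0.882, 1.55, 0 and 0.7596 in VM cells. It fell with Dox in MYC-2983 cells (−1.24 ± 0.07, adjusted p = 2.03e-11), while in VIM cells its 277, 289.9, 261 and 326 units without Dox gave −0.63 ± 0.08 (adjusted p = 4.64e-07), short of the size threshold.

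The 3 lines were then compared with one another in their Dox libraries, to ask what goes with loss of Vhl and of Ink4a/Arf. These comparisons share the Dox libraries of each line, each genotype is 1 line, and genotype and line cannot be told apart. In the titles, VM and VIM libraries are numbered in the same series and MYC-2983 libraries in another. What the series stand for was not in the labels. In comparisons with MYC-2983 cells, line, series and depth cannot be told apart. VM cells were lower than MYC-2983 cells in 19 of 30 collagen genes tested and higher in 2, where 18.1% of all genes tested were lower and 6.54% higher. The median log2 difference was −2.74, against −0.19 over all genes, and all 6 type IV genes were lower, with a median of −4.83. VIM cells were lower than MYC-2983 cells in 15 of 30 and higher in 4, where 18.3% and 5.66% of all genes were, with a median of −1.01 against −0.18. VIM cells were higher than VM cells in 11 of 28 and lower in 4, where 9.69% and 9.45% of all genes were, with a median of 0.57 against 0.02.

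Quantile normalization moved the share of lower genes among all those called from 73.4% to 47.7% for VM and from 76.4% to 51.5% for VIM against MYC-2983 cells, and raised the median of all genes by 0.25 and 0.23. The collagen counts in these comparisons were then 21 and 19 in all, as before. The fibroblast marker sum given above was 9873 units or more in MYC-2983 cells and at most 412 in VM and VIM cells with Dox, and its part in these differences was not tested.

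Type IV genes set VM cells apart. The log2 difference of Col4a1 was −7.55 ± 0.12 (adjusted p = 7.94e-15) for VM against MYC-2983 cells and 6.90 ± 0.13 (adjusted p = 1.25e-16) for VIM against VM cells. For Col4a2 the differences were −4.72 ± 0.11 and 4.22 ± 0.11. Col4a5 differed far less, by −1.05 ± 0.04 (adjusted p = 4.42e-11) between VM and MYC-2983 cells, and that call was lost after TMM (−0.90) and quantile normalization (−0.92). Col4a3 and Col4a4 were low in VM and in VIM cells with Dox, at −4.03 and −4.95 for VM and −3.44 and −4.99 for VIM against MYC-2983 cells.

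Among the fibrillar genes, type V set the lines apart. Col5a2 had 214, 224, 199 and 231 units in MYC-2983 cells with Dox, 2.22, 1.702, 2.55 and 0.877 in VM cells and 7767, 8310.3, 8656 and 8201 in VIM cells, with no overlap between lines. In VM cells all 4 libraries were at or under the floor. The VIM level was higher by 5.24 ± 0.04 (adjusted p = 7.25e-18) than in MYC-2983 cells and at least 3129-fold higher than in VM cells (11.54 ± 0.15, adjusted p = 1.82e-18 as fitted). Its neighbour Col3a1 (chr1:45368383-45406551), beside Col5a2 (chr1:45431166-45560127) on the same chromosome, had 4.16, 4.16, 5.25 and 3.23 units in the same VIM libraries and 94.5, 125, 141 and 90.1 in MYC-2983 cells, so the neighbours went opposite ways between those lines.

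Col5a1, the chain that joins Col5a2 in type V fibrils, varied much less, with 2301, 2238, 2253 and 2459 units with Dox in MYC-2983 cells, 955, 1014, 880.3 and 914 in VM cells and 2178, 2155, 2112 and 2072 in VIM cells. Without Dox it had 4817, 5012, 4902 and 5217 in MYC-2983, 1946, 2043, 2106 and 2035 in VM and 4012, 3711, 3671 and 4331 in VIM cells. Per kb the ratio of Col5a1 to Col5a2 was 7.87 to 8.90 in MYC-2983 cells with Dox and 0.192 to 0.221 in VIM cells with Dox. In VM cells without Dox it was 211 to 357, and with Dox no VM library had both genes above the floor. Kidney ratios were 0.0536 to 0.227. For Col5a2 the libraries without Dox had 510.5, 502, 476 and 506 units in MYC-2983, 4.41, 7.37, 4.65 and 7.596 in VM and 13109, 12343, 12574 and 13088 in VIM cells. Both genes fell with Dox in MYC-2983 (−1.11 ± 0.03 and −1.20 ± 0.05) and VM cells (−1.11 ± 0.05 and −1.31 ± 0.33), and in VIM cells they stood at −0.88 ± 0.04 and −0.63 ± 0.04, under the size threshold. After TMM the Col5a1 changes of −0.98 in MYC-2983 and −0.88 in VM cells no longer passed.

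**Figure D4:**
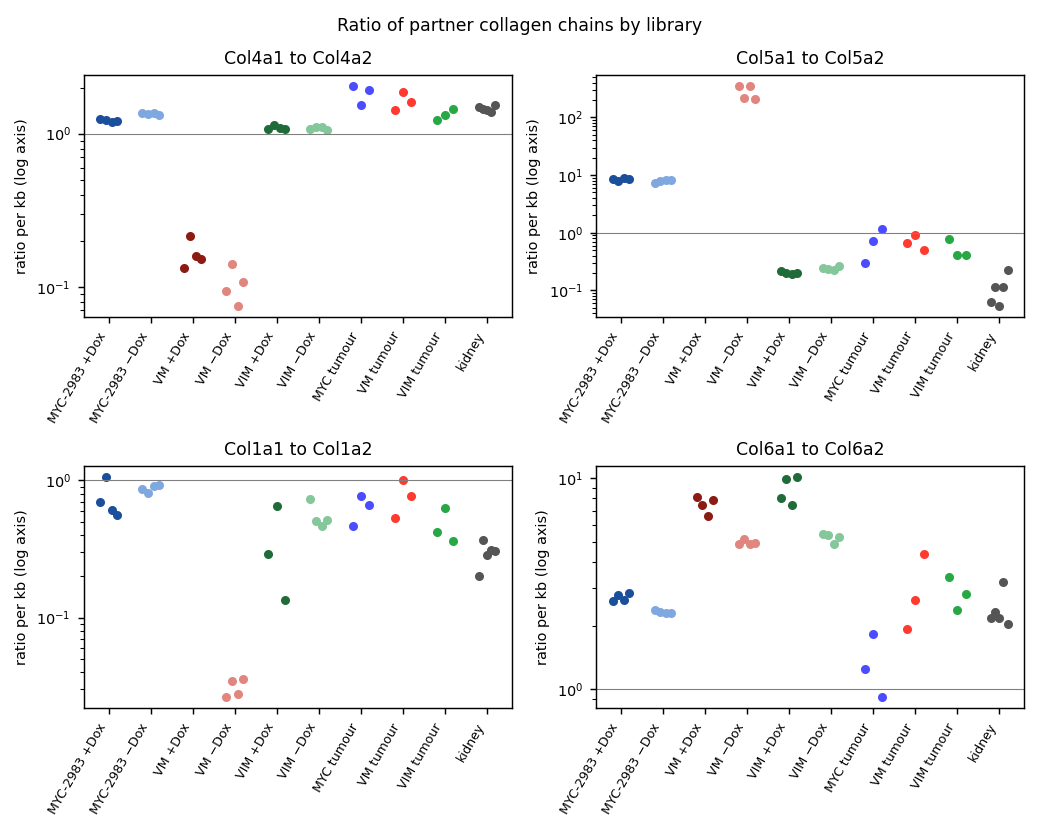
Ratio of the levels per kb of partner chains in each library (log axis), by group, for libraries in which both genes were above the floor. Col4a1 to Col4a2 sits between 1.06 and 2.06 outside VM cells and below 0.22 in them, and Col5a1 to Col5a2 runs from 0.0536 in a kidney to 357 in a VM library.

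Type I collagen, the bulk protein of interstitial fibres, fell with Dox in every line. Col1a2 (chr6:4454814-4491543) had 82.8, 106, 81.5 and 86.8 units with Dox and 607, 663, 684 and 647 without in VM cells, and 21.5, 17.3, 26.2 and 18.6 and 89.2, 104, 85.7 and 111 in VIM cells. MYC-2983 cells had 102, 71.2, 79.1 and 119 and 398, 480.3, 392 and 412. The groups did not overlap, and the log2 changes were −2.86 ± 0.09, −2.18 ± 0.17 and −2.19 ± 0.12, with adjusted p of 7.9e-15, 9.87e-11 and 6.31e-12. Col1a1 (chr11:94797538-94814356), which supplies more of each type I molecule than Col1a2, had 78.3, 83.7, 53.6 and 73.9 units with Dox and 381, 428, 397 and 422 without in MYC-2983 cells (−2.49 ± 0.10). In VM cells all 4 Dox libraries were at or under the floor (1.48, 2.55, 1.698 and 1.75 units), and without Dox it had 17.6, 25.2, 20.9 and 25.8 (−3.03 ± 0.26). VIM cells had 6.94, 12.5, 3.94 and 2.42 with Dox and 72.1, 57.97, 43.9 and 63.9 without (−3.19 ± 0.32). Per kb the ratio of Col1a1 to Col1a2 without Dox was 0.803 to 0.924 in MYC-2983 and 0.462 to 0.729 in VIM cells but 0.0262 to 0.0360 in VM cells.

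Between lines, VIM cells with Dox had less Col1a2 than VM cells (−2.05 ± 0.16, adjusted p = 1.14e-08). The call of more Col1a1 in VIM than in VM cells (adjusted p = 0.0121) rested on levels near the floor with overlapping libraries, and without VIM library 2 it was 0.85 with an adjusted p of 0.0678. Col3a1, the second interstitial fibre collagen, had 94.5, 125, 141 and 90.1 units in MYC-2983, 2.96, 1.702, 1.698 and 1.75 in VM and 4.16, 4.16, 5.25 and 3.23 in VIM cells with Dox, a difference of −5.23 ± 0.21 and −4.44 ± 0.19. Without Dox it had 157, 195, 174 and 191 units in MYC-2983, 1.76, 2.33, 1.55 and 3.798 in VM and 13.3, 6.69, 10.2 and 4.98 in VIM cells. Its changes with Dox did not pass in any line. Col11a1, a nucleator of thin fibrils, had 57.6, 50.03, 56.1 and 58.9 units in MYC-2983 cells with Dox and 236, 285, 285 and 286 without (−2.27 ± 0.09), and in the Dox libraries its level was at least 21.2-fold higher than in VM (0, 1.702, 0.849 and 0) and at least 22.97-fold higher than in VIM cells (0, 0.693, 0 and 0).

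Other fibrillar genes were minor by level. Col5a3 had 154, 173, 187 and 172 units with Dox and 479, 497, 487 and 472 without in MYC-2983 cells, 7.39, 7.66, 5.09 and 10.5 and 27.3, 22.1, 35.7 and 44.1 in VM cells, and 43.7, 27.04, 30.8 and 18.6 and 86.4, 91.4, 102 and 143 in VIM cells, with log2 changes of −1.49, −1.93 and −1.81. Col27a1, also a fibrillar collagen of cartilage, changed by −1.64, −2.46 and −2.28 from 33.5, 38.2, 37.04 and 27.7 units without Dox in MYC-2983, 88.2, 119, 127 and 109 in VM and 17.1, 12.3, 19.4 and 24.1 in VIM cells. With Dox it had 7.27, 11.4, 10.3 and 12.6 in MYC-2983, 17.7, 19.6, 18.7 and 21.1 in VM and 8.33, 2.08, 1.97 and 1.62 in VIM cells. Col11a2 ran the other way between lines, at 17.9, 22.3, 26.01 and 11.01 units in MYC-2983, 71.7, 45.1, 33.1 and 39.5 in VM and 104, 64.5, 44.6 and 38.8 in VIM cells with Dox, higher by 1.25 ± 0.27 and 1.61 ± 0.30 than in MYC-2983 cells. It was the 1 collagen gene above the floor in every cell library and in no kidney library.

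Type VI collagen forms beaded filaments next to basement membranes, and its Col6a1 and Col6a2 chains were present in every cell library. Col6a1 had 1783, 1911, 1891 and 1931 units with Dox and 5201, 5354, 5255 and 5389 without in MYC-2983 cells, 992, 1141, 959 and 1059 and 6033, 6218, 6522 and 6300.0 in VM cells, and 469, 466, 449 and 489.6 and 2199, 2050.2, 2086 and 2232 in VIM cells. The log2 changes were −1.50 ± 0.03 (adjusted p = 4.32e-18), −2.60 ± 0.05 (adjusted p = 8.43e-17) and −2.19 ± 0.04 (adjusted p = 6.7e-21) respectively. The groups did not overlap in any line. Col6a2 had 773, 774, 808 and 769 units with Dox and 2486, 2631, 2591 and 2657 without in MYC-2983 cells, 139, 174, 166 and 153 and 1407, 1378, 1520.2 and 1459.9 in VM cells, and 65.9, 53.4, 68.9 and 54.9 and 460.3, 434, 485 and 483 in VIM cells. Its changes were −1.73 ± 0.03, −3.19 ± 0.07 and −2.92 ± 0.09. VIM cells were below VM cells with Dox in both genes, by −1.14 ± 0.05 and −1.36 ± 0.12. Per kb the ratio of Col6a1 to Col6a2 was 6.58 to 8.11 in VM cells with Dox and 4.86 to 5.12 without, against 2.30 to 2.37 in MYC-2983 cells without Dox. Col6a4, Col6a5 and Col6a6 were near or under the floor in the cells.

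Col18a1, a multiplexin of epithelial and vascular basement membranes that gives rise to endostatin, had the highest level per kb of any collagen in VM cells. It had 2147, 2244, 1876 and 1990.3 units with Dox and 9733, 9388, 10423 and 10826 without there (−2.29 ± 0.06, adjusted p = 8.17e-16). MYC-2983 cells had 1687, 1522, 1602 and 1692 with Dox and 5792, 5875, 5782 and 5907 without (−1.85 ± 0.03), and VIM cells 1998, 2128, 2116 and 2144 and 6369, 6399, 6379.6 and 7026 (−1.64 ± 0.04). Its Dox levels did not differ past the threshold between any 2 lines. The other multiplexin, Col15a1, was at most 2.18 units in every cell library.

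Col7a1, which forms the anchoring fibrils under stratified epithelia, was higher in the Vhl-deleted lines. It had 119.6, 89.2, 87.8 and 145 units in MYC-2983, 553, 563, 401 and 432 in VM and 834, 657, 678 and 591 in VIM cells with Dox, with no overlap between MYC-2983 and either other line, and differences of 2.15 ± 0.15 (adjusted p = 1.6e-08) and 2.65 ± 0.14 (adjusted p = 4.13e-10). It fell with Dox in each line, with log2 changes of −2.07, −2.40 and −2.38, from 469.8, 453, 453 and 449 units without Dox in MYC-2983, 2256, 2674, 2942 and 2368 in VM and 3672, 3154, 3489 and 4032 in VIM cells. Tumours of every genotype stood near or under the floor for this gene, with 0, 13.9 and 1.41 units in MYC, 3.99, 0 and 1.23 in VM and 3.77, 2.51 and 0 in VIM tumours. Means in VM cells with Dox were thus at least 122-fold those of VM tumours, and means in VIM cells at least 122-fold those of VIM tumours, given side by side without a test.

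Col12a1, a FACIT collagen on the surface of type I fibrils, had 2251, 2448, 2201 and 2584 units with Dox and 5663, 6223, 6372 and 6866 without in MYC-2983 cells, 240.2, 273, 247 and 224 and 693, 957, 673 and 798 in VM cells, and 934, 964, 1030.2 and 1003 and 4271, 3815, 3468 and 4032 in VIM cells. It fell in each line, with log2 changes of −1.40 ± 0.05, −1.65 ± 0.09 and −1.98 ± 0.05. In the Dox libraries it was lower in VM (−3.26 ± 0.06) and in VIM cells (−1.27 ± 0.05) than in MYC-2983 cells. Col8a1, a short-chain network collagen of vessel walls and of the cornea, had 173, 208, 237 and 182 units with Dox and 893, 909.7, 863 and 788 without in VIM cells (−2.11 ± 0.08), 50.9, 47.3, 45.5 and 48.2 and 149, 128, 145 and 145 in MYC-2983 cells (−1.54 ± 0.09), and was under the floor in every VM library with Dox (0, 1.702, 1.698 and 0.877). The VIM level with Dox was at least 75.9-fold that of VM cells.

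The remaining genes were scarce in culture. Col20a1, a FACIT gene, was above the floor in all 38 libraries, at 30.3 to 92.5 units in the cells, 28.2 to 73.4 in the tumours and 36.3 to 67.05 in kidney, and passed in no comparison of lines or tissues. The transmembrane gene Col23a1 was above the floor in the 8 MYC-2983 libraries alone among the cells, with 15.7, 13.6, 10.8 and 7.34 units with Dox and 29.5, 26.98, 32.4 and 29.4 without (−1.29 ± 0.21). Col8a2, the partner of Col8a1, averaged 11.3 units with Dox and 44.3 without in MYC-2983 cells (−1.89 ± 0.17) and at most 2.17 in a group of the other lines. The cartilage genes Col2a1 and Col9a3 reached at most 6.58 and 13.2 units in any cell library. Col13a1, Col17a1, Col24a1, Col25a1 and Col28a1 stayed below 3.3 units in the cells.

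Whether the change with Dox differed between lines was tested as the interaction of Dox and line. It passed for 7 of 36 collagen genes tested between VM and MYC-2983 cells, where 8.78% of all genes did, for 8 of 36 between VIM and MYC-2983 cells (9.06%) and for 2 of 36 between VIM and VM cells (6.05%). Col16a1, a FACIT gene, was the clearest case. It had 692, 582, 599 and 562 units with Dox and 541, 533, 557 and 626 without in VIM cells, where the groups overlapped, but 396, 346, 392 and 382 and 787, 828, 814 and 839.5 in MYC-2983 and 301, 316, 222 and 223 and 569, 593, 684 and 652 in VM cells. Its interaction was 1.35 ± 0.14 (adjusted p = 1.16e-07) for VIM against VM and 1.22 ± 0.08 (adjusted p = 1.22e-10) for VIM against MYC-2983 cells, while the fall in MYC-2983 cells itself (−1.11) was −0.98 after TMM.

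Type VI genes fell more in VM than in MYC-2983 cells, with interactions of −1.10 ± 0.06 (adjusted p = 1.94e-11) for Col6a1 and −1.46 ± 0.07 (adjusted p = 6.63e-12) for Col6a2. Col4a4 fell more in VIM (−2.60 ± 0.23, adjusted p = 3.87e-09) and in VM (−1.54 ± 0.22, adjusted p = 9.29e-06) than in MYC-2983 cells. The second of these was −0.28 with a pseudocount of 10 and −0.65 after quantile normalization, and did not pass there.

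Tumours of each genotype were compared with normal kidney, and the 3 comparisons share the 5 kidneys. By the paper's methods the tumour models were given Dox chow, with oral tamoxifen before it where Vhl was deleted. The kidney mice were given vehicle, so treatment and tumour cannot be told apart in these comparisons. The share of collagen genes that was higher lay near or below that of all genes, and the share that was lower lay above it. MYC tumours were higher in 7 of 38 tested and lower in 9, where 18.8% of all genes were higher and 18.6% lower, with a median of −0.20 against 0.07 over all genes. VM tumours were higher in 7 of 39 and lower in 14, against 17.3% and 22.5%, with a median of −0.53 against −0.05. VIM tumours were higher in 4 of 39 and lower in 13, against 18.9% and 20.7%, with a median of −0.39 against 0.01. Without MYC tumour library 2 the MYC count was 20 in place of 16, without VM tumour library 1 the VM count was 20 in place of 21, and without kidney 5 the 3 counts were 17, 21 and 16. With the kidney libraries titled B6 alone the counts were 15, 19 and 13, and with those titled KT alone 12, 19 and 14.

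Type IV genes split by chain. Col4a1 had 10338, 11772 and 11068 units in MYC tumours, 15230.4, 11102 and 6147 in VM tumours and 3228, 6346 and 2642 in VIM tumours against 3083, 4089, 2675, 3922 and 4819.7 in kidney. MYC and VM tumours lay above every kidney, by 1.58 ± 0.23 (adjusted p = 0.000838) and 1.48 ± 0.29 (adjusted p = 0.00187), while VIM tumours overlapped the kidneys and gave 0.06 ± 0.30 (adjusted p = 0.885). Col4a2 had 4888, 7404 and 5623 units in MYC, 10330.2, 5806 and 3731 in VM and 2567, 4679 and 1773 in VIM tumours against 2003, 2755, 1827, 2765 and 3055 in kidney. The differences were 1.21 ± 0.23, 1.32 ± 0.31 and 0.19 ± 0.30, of which the first 2 passed. The Col4a2 difference was 0.98 against the KT kidneys alone for MYC tumours and 0.94 without VM tumour library 1 for VM tumours, each under the size threshold.

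Col4a3 and Col4a4 showed the largest falls of the type IV class. Col4a4 had 3780.3, 4885, 3839, 4883 and 4672 units in the kidneys and 81.2, 273 and 52.3 in MYC, 304, 8.25 and 23.4 in VM and 22.6, 197 and 12.8 in VIM tumours. All tumours lay below all kidneys, with differences of −5.46 ± 0.19 (adjusted p = 1.1e-06), −6.74 ± 0.87 (adjusted p = 0.000133) and −6.77 ± 0.69 (adjusted p = 4.02e-05). Col4a3 had 4528, 8482, 4715, 7534 and 8220.1 units in the kidneys and 80.2, 304 and 102 in MYC, 310.3, 13.4 and 18.5 in VM and 50.8, 258 and 18.4 in VIM tumours. Here too all tumours lay below all kidneys, with differences of −5.75 ± 0.36, −7.18 ± 0.84 and −6.66 ± 0.67. The podocyte marker Nphs1 averaged 432 units in kidney and no more than 7.31 in any tumour group. It was at 0 in every VM tumour and in every cell library. The summed level of 6 podocyte markers was 4394 to 11765 in kidney and 911 to 3785 across the tumours. That sum was also 4333 to 4587 in VM cells with Dox. In each line it was higher with Dox, where Col4a3 and Col4a4 were lower. The sum of the tubule and epithelial markers was 204756 to 268476 in kidney and 10873 to 31269 in the tumours. The part of podocyte or tubule cells in the Col4a3 and Col4a4 differences was not tested.

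The last pair was less uniform. Col4a5 was lower in VIM tumours alone past the threshold (343, 391 and 435 against 881, 1245, 999, 1261 and 1339.7 units in kidney, −1.54 ± 0.18, adjusted p = 9.21e-05), with 1122, 455 and 795 in MYC and 1245, 725 and 337 in VM tumours. The difference between VIM and VM tumours was itself −0.79 ± 0.45 (adjusted p = 0.558) and did not pass. Col4a6 was higher than in kidney (3.46, 23.4, 9.37, 9.77 and 27.8 units) with 267, 6.17 and 167 in MYC, 134, 29.9 and 28.4 in VM and 32.02, 88.97 and 42.2 in VIM tumours. The adjusted p of 0.0313, 0.0468 and 0.0284 were close to the threshold, and MYC tumour library 2 lay below 4 of the 5 kidneys. Leaving out MYC tumour library 1 gave 1.43 with an adjusted p of 0.26, leaving out VM tumour library 1 gave 1.23 with 0.18, and leaving out VIM tumour library 2 gave 1.56 with 0.103.

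**Figure D5:**
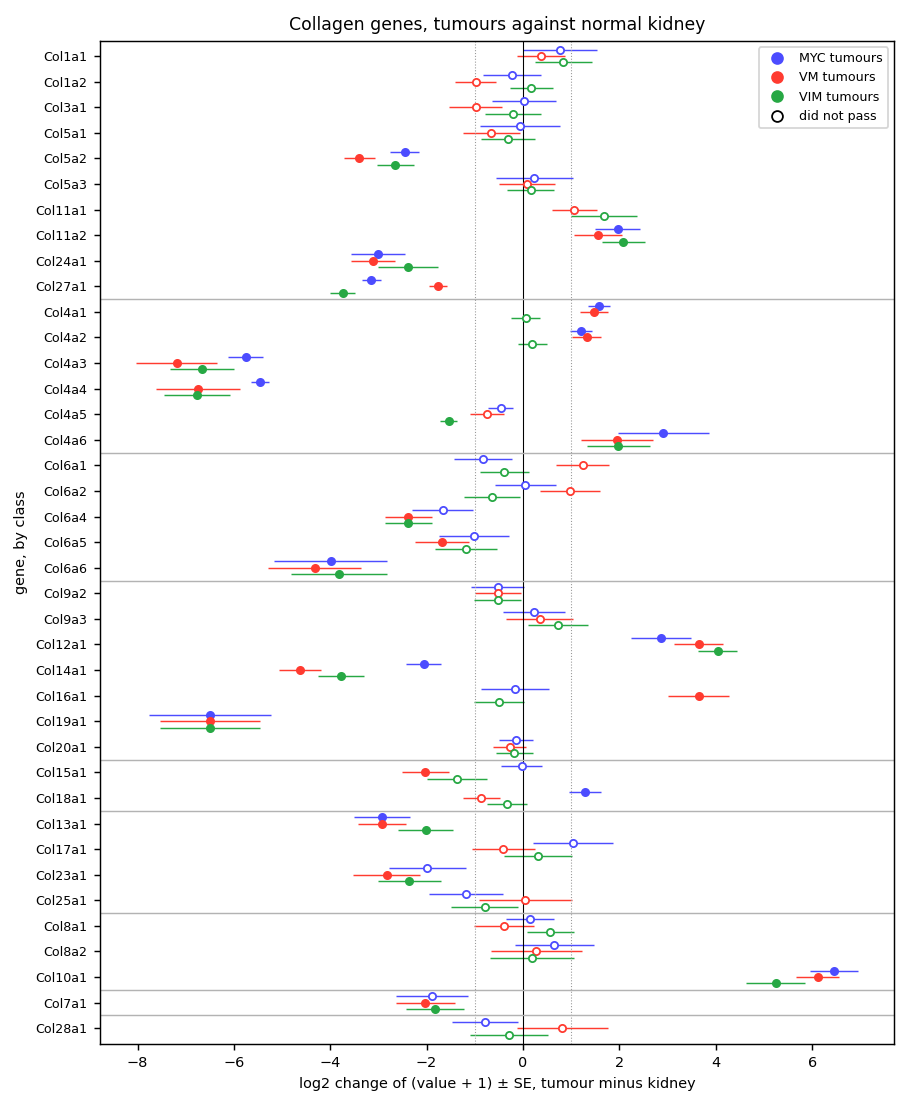
Difference from normal kidney (log2 of units + 1, tumour minus kidney) of every collagen gene tested in MYC, VM and VIM tumours, with bars of 1 standard error from limma and filled points past the threshold. Col10a1 lies furthest to the right, between 5.24 and 6.46, and Col4a3, Col4a4 and Col19a1 furthest to the left, from −5.46 to −7.18.

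Of the fibrillar genes tested, 1 was higher and 3 lower than in kidney in each tumour genotype, out of 9, 10 and 10. Over all genes 18.8%, 17.3% and 18.9% were higher and 18.6%, 22.5% and 20.7% lower. Col5a2 had 713, 561, 689, 622 and 963 units in kidney and 87.7, 963 and 33.9 in MYC, 121, 46.4 and 49.3 in VM and 54.6, 222 and 110.1 in VIM tumours, and MYC tumour library 2 reached the level of the kidneys. The differences were −2.45 ± 0.30 (adjusted p = 0.000344), −3.40 ± 0.32 (adjusted p = 1.92e-05) and −2.65 ± 0.39 (adjusted p = 0.000348), and without MYC tumour library 3 the first was −1.26 with an adjusted p of 0.191. Col27a1 had 1412, 1737, 1229, 1358 and 1197 units in kidney against 183, 69.4 and 239 in MYC, 475, 459 and 303 in VM and 80.98, 76.4 and 169 in VIM tumours, with no overlap (−3.15 ± 0.20, −1.76 ± 0.19 and −3.75 ± 0.27). Col11a2 was under the floor in all kidneys and had 5.65 to 30.9, 3.699 to 13.3 and 7.34 to 16.3 units in the tumours (1.96 ± 0.47, 1.56 ± 0.49 and 2.08 ± 0.45).

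The type I and type III genes did not pass in any tumour genotype. Col1a1 had 141, 2994 and 159.6 units in MYC, 239.7, 235 and 243 in VM and 190.2, 699 and 268 in VIM tumours against 93.4, 331, 89.7, 184 and 406 in kidney, and Col3a1 had 248, 4316 and 233 in MYC, 449, 111 and 302 in VM and 175, 499 and 887 in VIM tumours against 304, 782, 248, 467 and 1032. The values of tumours and kidneys overlapped, and MYC tumour library 2 held the highest level of both genes. Col1a2 had 271, 3515 and 219 in MYC, 406, 211 and 286 in VM and 407, 1001 and 666 in VIM tumours against 422, 816, 285, 533 and 1189 in kidney, and again the highest was MYC tumour library 2. Its companion from the same mouse had 219 units of Col1a2, 159.6 of Col1a1 and 233 of Col3a1. MYC tumour library 2 was also the library of its group with the highest fibroblast marker sum, whose part in these levels was not tested.

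Col10a1, the short-chain collagen of growth-plate cartilage, was the largest rise among the collagen genes. It had 123, 242 and 29.7 units in MYC tumours, 94.5, 83.5 and 66.6 in VM tumours and 67.8, 81.5 and 14.7 in VIM tumours, whereas 4 kidneys were at 0 and the other had 1.265 units, under the floor. Its level was at least 25.4-fold, 15.7-fold and 10.5-fold higher than in kidney, with log2 differences of 6.46 ± 0.50 (adjusted p = 3.93e-05), 6.12 ± 0.45 (adjusted p = 3.71e-06) and 5.24 ± 0.62 (adjusted p = 9.04e-05). Among the cell libraries, 1 VIM library without Dox reached 3.34 units and no other passed 1.55. The gene (chr10:34109787-34116891, plus strand) lies inside Nt5dc1, which is read from the other strand.

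Col12a1 was likewise higher in the tumours, with 283, 2631 and 767 units in MYC, 2800.3, 628 and 732 in VM and 987, 1164 and 2561 in VIM tumours against 74.4, 74.5, 61.6, 78.2 and 176 in kidney, and no overlap. The differences were 2.87 ± 0.62 (adjusted p = 0.00522), 3.65 ± 0.51 (adjusted p = 0.000206) and 4.04 ± 0.40 (adjusted p = 3.58e-05). The highest library of each genotype (MYC 2, VM 1 and VIM 3) and of kidney (5) was also the highest of its group in the fibroblast and endothelial marker sums. Without that tumour library the differences were 2.42, 2.96 and 3.62, and all 3 passed. The part of fibroblasts or endothelial cells in the Col12a1 differences was not tested. Col18a1 was higher in MYC tumours (6843, 4836 and 6651 units against 1759.5, 3133, 1983, 2261 and 4304 in kidney, 1.29 ± 0.33, adjusted p = 0.0116), a call lost against the KT kidneys alone (0.996) and without MYC tumour library 1 (1.16, adjusted p = 0.0525). VM tumours had 2679, 844.3 and 1208 units and VIM tumours 2512, 3311 and 984. Col16a1 was higher in VM tumours, at 4477, 1059.8 and 1119.6 units against 96.9, 169, 65.6, 112 and 423 in kidney (3.64 ± 0.63, adjusted p = 0.000823), and by 2.96 without VM tumour library 1.

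Of the 9 FACIT genes, Col14a1 and Col19a1 were lower than in kidney in every tumour genotype. Col14a1, found on fibrils of dense connective tissue, had 567, 524, 444, 560.3 and 1218 units in kidney and 169, 387 and 42.4 in MYC, 42.6, 11.3 and 28.4 in VM and 20.7, 97.7 and 42.2 in VIM tumours, with differences of −2.06 ± 0.36, −4.62 ± 0.44 and −3.77 ± 0.48 and no overlap. Col19a1 had 208, 105, 262, 140.1 and 6.33 units in kidney and was at 0 in all 9 tumours. The mean of the kidneys was at least 31.2-fold, 36.1-fold and 25.5-fold that of MYC, VM and VIM tumours, although kidney 5 held only 6.33 units. Col15a1, the multiplexin of microvessel basement membranes, was lower in VM tumours (126, 36.1 and 50.6 against 251, 229, 139, 244 and 533 units, −2.03 ± 0.48, adjusted p = 0.00542), a call lost against the B6 kidneys alone (−1.59, adjusted p = 0.0991). The sum of 8 endothelial markers was 499 to 2463 units in VM tumours and 4127 to 7053 in kidney, and its part in the Col15a1 difference was not tested. The transmembrane gene Col13a1 and the type VI gene Col6a6 were also lower in the tumours, from at most 12.7 and 65.7 units in any kidney, and so was the fibrillar gene Col24a1, from 9.37 to 19.03 units.

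Tumours of the 3 genotypes were scarcely separated from one another. VIM and VM tumours differed in 1 of 35 collagen genes tested, where 0.249% of all genes did, and 6 had an unadjusted p under 0.05. VM against MYC tumours gave 0 of 32 (0% of all genes), with 6 at an unadjusted p under 0.05, and VIM against MYC tumours gave 0 of 35 (0.00616% of all genes), with 3. The shares of all genes at that unadjusted p were not worked out, so these counts have nothing to be set against. The 1 gene was Col16a1, at 4477, 1059.8 and 1119.6 units in VM and 99.8, 100.3 and 93.6 in VIM tumours, with no overlap (−4.14 ± 0.53, adjusted p = 0.0308). Without VM tumour library 1, which stood apart, the difference was −3.46 with an adjusted p of 0.0264, but it did not pass without VM library 2 (adjusted p = 0.0808) or 3 (0.0891), or without VIM library 1 (0.149), 2 (0.122) or 3 (0.0558). The wide gap of the VM and VIM lines in Col5a2 had no counterpart in the levels of the tumours, with 46.4 to 121 units in VM and 54.6 to 222 in VIM tumours, although 2 or 3 animals a group give a coarse test.

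Genes that process collagen were counted from lists of named enzymes and partners. The lysyl oxidases, which crosslink laid-down fibres, fell with Dox in 5 of 5, 3 of 4 and 3 of 5 tested in MYC-2983, VM and VIM cells, with medians of −1.55, −1.56 and −1.53. Over all genes 15%, 18.9% and 16.6% were lower and 4.49%, 5.92% and 7.67% higher. Loxl2 averaged 1648 and 6347 units with and without Dox in MYC-2983, 1234 and 4800.1 in VM and 3560.1 and 14124 in VIM cells. Prolyl and lysyl hydroxylases fell in 1, 1 and 2 of 10 (medians −0.71, −0.68 and −0.59), shares on both sides of those of all genes. Folding, glycosylation and export genes fell in 2 of 9, 3 of 8 and 4 of 9 and rose in 1, 0 and 0 (−0.82, −0.68 and −0.56). Procollagen proteinases and their enhancers fell in 3 of 7, 1 of 6 and 3 of 7 and rose in 1, 0 and 1 (−0.95, −0.65 and −0.39). Collagen receptors fell in 3 of 7, 3 of 6 and 4 of 6, the integrin genes Itga1, Itga2 and Itgb1 among them in each line (−0.59, −1.10 and −1.16). Partners of type IV collagen fell in 2 of 9, 1 of 8 and 3 of 9 (−0.78, −0.60 and −0.65), again on both sides. The medians over all genes were those given with the first Dox counts.

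Serpinh1 and Lox are given between lines as single genes, chosen after their values were seen. Serpinh1, the chaperone HSP47 that procollagen needs to fold, averaged 16566 ± 345 units (SD, n = 4) with Dox in MYC-2983 cells and 910.2 ± 26.7 in VIM cells but 0.213 ± 0.426 in VM cells, and 2.499 in VM cells without Dox. The differences were −13.79 ± 0.17 (adjusted p = 4.99e-16) for VM against MYC-2983 and 9.61 ± 0.20 (adjusted p = 7.87e-16) for VIM against VM cells. Lox averaged 1489, 0.219 and 2071 units with Dox in MYC-2983, VM and VIM cells. In VM tumours Serpinh1 averaged 937 units and Lox was not past the threshold against kidney (1.31 ± 0.57, adjusted p = 0.0775).

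Against kidney, type IV partners were higher in 6 of 9 genes in MYC, 5 in VM and 3 in VIM tumours, and lower in 0, 2 and 2, with medians of 1.72, 1.03 and 0.48 beside 0.07, −0.05 and 0.01 over all genes. The shares of all genes higher and lower were those given with the fibrillar counts, 17.3% to 18.9% and 18.6% to 22.5%. Hspg2 (perlecan), Lamc1 and Lama5 (laminin chains) were among the higher genes of each genotype, and Nid1, which links laminin to type IV collagen, was lower in VM (−1.03 ± 0.35) and VIM tumours (−1.05 ± 0.30). Lysyl oxidases were higher in 2, 1 and 3 of 5 (medians 0.46, 0.72 and 1.55), with Loxl2 at means of 2676, 3755 and 2319.9 units against 159.7 in kidney. Hydroxylases were higher in 2, 3 and 2 of 10 and lower in 1, 0 and 2 (0.39, 0.52 and 0.31), P4ha2 being higher by 1.31 ± 0.17, 3.45 ± 0.21 and 2.76 ± 0.19. Folding genes were higher in 2, 1 and 1 of 9 and lower in 1, 1 and 2 (0.06, −0.03 and −0.10), and proteinases were higher in 1, 1 and 2 of 7 and lower in 2, 4 and 2 (−0.13, −1.38 and 0.31). Among 7 receptors (0.97, 0.71 and 0.21) Ddr2, a kinase that binds fibrillar collagen, was the 1 gene higher in each genotype, with 0 lower.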

How the data were processed

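Kidney tumours, tumour cell lines and normal kidney were sequenced from poly(A) RNA in paired-end, stranded libraries. Per the study's methods and the submitters' processing notes, the authors aligned reads to mm9 with MapSplice, handled the alignments with SAMtools and Picard 1.64, estimated gene counts with RSEM and scaled each library to its upper quartile. The deposited values are this scaled signal per gene, and the upper quartile of genes above 0 was checked to be 998 to 1000 in every library.

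The 10 groups followed the labels. Values were tested as log2(units + 1) with limma 3.58.1 (R 4.3.3; lmFit and eBayes with a trend), two-sided, on genes above 0 in at least 4 cell libraries or 2 tissue samples, with Benjamini-Hochberg adjustment over all genes tested across the table. Counts could not be recovered, so no count model was run: low values were whole multiples of 1 read, within 0.02, for 94.1% to 95.9% of low values (those up to 20 reads), and 1 read was taken from the most common small value. Any collagen gene could be named. By a fixed rule, library values were given for Col1a1, Col1a2, Col3a1, Col4a1 to Col4a6 and Col18a1 and for members past the threshold whose groups did not overlap and whose higher group averaged 50 units or more. Other values shown were chosen after they were seen, and other genes were named from the lists alone. The collagen genes, their classes, the 6 lists of collagen-processing genes and the lists of fibroblast, endothelial, mural, podocyte, leukocyte and tubule markers were chosen with earlier results of these data known. Summed mural markers were 1276 to 5466 units in tissues. A value counted as above the floor when it passed 3 reads by more than 0.02 of a read. Leukocyte markers summed to 218 to 1013 units in cells, 861 to 3937 in tumours and 827 to 1929 in kidney. Gene positions, first exons and sequence came from GENCODE M1 on NCBIM 37. On simulated data, 200 genes averaging above 50 units on the log scale were changed by a log2 of 2. The calls recovered 100% of them for Dox in VM cells (16172 genes) and 81% for VIM tumours against kidney (17319 genes). In each, 6 unchanged genes were also called. Recovery of smaller changes, or of genes near the floor, was not simulated.

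Same-numbered VM and VIM libraries were checked for pairing, and the correlations of their deviations averaged −0.207 to 0.119, so the numbers were not taken as pairs. Alternatives were pseudocounts of 0.1 and 10, TMM and quantile rescaling, no filter, a replicate block, kidneys titled B6 or KT alone, each MYC tumour library as a sample, and leaving out each library in turn. What KT stands for, and the line numbers of the VM and VIM cells, were not in the labels. The figures were drawn with matplotlib 3.10.9.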

Additional observations from a re-analysis of the deposited data

Results flagged for a closer look

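Within groups of 4 or 5 libraries, 10 of 117 combinations of gene and group tested, over 30 genes, held a library far from its companions, and chance marks about 1 in 20. Kidney 5 was the one that recurred. It had Col12a1 at 176 units (61.6 to 78.2 in the other 4), Col14a1 at 1218 (444 to 567), Col15a1 at 533 (139 to 251), Col5a1 at 277 (46.9 to 89.6), Col6a1 at 454 (107 to 194) and Col6a2 at 254 (56.2 to 92.0). Its fibroblast marker sum, 2940 units, was also the highest of the kidneys. So were its endothelial (7053), mural (3328), podocyte (11765), leukocyte (1929) and tubule and epithelial (268476) marker sums. The part of any of these sets in the values of kidney 5 was not tested. In the cells, Col11a1 was at 236 units in MYC-2983 library 1 without Dox (285 to 286 in the others), Col6a2 at 808 in MYC-2983 library 3 with Dox (769 to 774), Col18a1 at 7026 in VIM library 4 without Dox (6369 to 6399) and Col4a4 at 149 in VIM library 2 without Dox (211 to 214).

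The change with Dox differed between lines in 17 tests of the interaction (limma, adjusted p below 0.05 and a log2 difference beyond 1 in size). Smaller differences are not listed, whatever their adjusted p. Each is given as the change of the first line minus that of the second. For VIM against VM cells these were Col16a1 (1.35 ± 0.14, adjusted p = 1.16e-07) and Col4a4 (−1.06 ± 0.32, adjusted p = 0.0138). For VM against MYC-2983 cells they were Col6a2 (−1.46), Col6a1 (−1.10), Col4a4 (−1.54), Col4a3 (−1.03 ± 0.34, adjusted p = 0.0176), Col11a2 (−1.41 ± 0.42, adjusted p = 0.00882), Col9a3 (−1.37 ± 0.52, adjusted p = 0.0368) and Col14a1 (1.23 ± 0.42, adjusted p = 0.0217). For VIM against MYC-2983 cells they were Col4a4 (−2.60), Col4a3 (−1.68 ± 0.28, adjusted p = 2.8e-05), Col6a2 (−1.19 ± 0.09, adjusted p = 3.7e-10), Col16a1 (1.22), Col14a1 (2.20 ± 0.38, adjusted p = 5.07e-05), Col23a1 (1.30 ± 0.42, adjusted p = 0.0145), Col8a2 (1.09 ± 0.38, adjusted p = 0.0224) and Col24a1 (1.17 ± 0.46, adjusted p = 0.0429). Levels of Col4a3, Col4a4, Col14a1, Col9a3, Col23a1, Col8a2 and Col24a1 were near the floor in at least 1 of the groups compared. Several of these calls were lost when 1 of 16 libraries was left out or under another setting. For VM against MYC-2983 cells, Col4a3 did not pass with a pseudocount of 10 (−0.06), after quantile normalization (−0.10), or without MYC-2983 library 1 or 4 with Dox, VM library 1 or 2 with Dox or VM library 2 without Dox (−0.97 to −0.84). Col9a3 did not pass in 3 settings and on leaving out any 1 of 7 libraries. For VIM against VM cells, Col4a4 did not pass with a pseudocount of 10 (−0.97), or without VM library 1 or 4 with Dox, VM library 4 without Dox or VIM library 4 with Dox (−0.98 to −0.87). For VIM against MYC-2983 cells, Col24a1, below 3 units in every library of both lines, did not pass in 2 settings and on leaving out any 1 of 13 libraries. Col8a2 did not pass with a pseudocount of 0.1 (0.71), after TMM (0.99) or quantile normalization (0.97), or without VIM library 2 with Dox (0.97) or 3 without (0.86). Col23a1 did not pass in 3 settings, Col4a3 in 2 and Col6a2 in 1, and in both comparisons with MYC-2983 cells Col14a1 did not pass with a pseudocount of 10.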

How the results depend on the processing

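Of 143 differences of single collagen genes, recomputed as 2131 values under other settings, 2040 values kept their direction and passed the threshold, 91 kept their direction without passing, and 0 reversed. Outside the interactions, 39 of 1772 values no longer passed. Counts of collagen genes past the threshold moved by over 1.5 times in these cases. The interaction of VIM against VM cells gave 4 genes after quantile normalization in place of 2, and 1 to 3 with single libraries left out. The interaction of VM against MYC-2983 cells gave 4 after quantile normalization in place of 7, and 5 to 7 with libraries left out. The interaction of VIM against MYC-2983 cells gave 5 with a pseudocount of 10 and 3 after quantile normalization in place of 8, and 6 to 9 with libraries left out. VIM against VM tumours gave 0 with a pseudocount of 10 in place of 1, and 0 to 1 with libraries left out. The causes were not tested. Counts for Dox stayed at 20 to 23 in MYC-2983, 16 to 24 in VM and 15 to 18 in VIM cells, and those against kidney at 12 to 20, 16 to 21 and 12 to 18 for MYC, VM and VIM tumours. With the replicate block the counts for VM and VIM cells were 22 and 17 for Dox, 15 for VIM against VM cells and 2 for their interaction, each as without it; in VM cells, 0 of 4 pairs correlated best with their own number. Depth limits the low genes: a library resolves 1.16 to 5.65 units at 3 reads, and many VM and VIM levels with Dox lie there.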
